A study of Mus musculus with 16 samples.

Results

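A set of 10 genes of sebaceous lipid production was followed across mouse skin exposed to ultraviolet B (UVB). They were picked by symbol, as genes for lipid synthesis or markers of the sebaceous gland, and all 10 were found among the 24421 genes of the count table. In UVB-exposed epidermis, taken over 3 weeks of sampling, Scd3 and Mogat1 were lower than in unexposed epidermis, with and without 1 control library that stood apart, although Mogat1 passed the filter on low counts only through the week 2 controls, where it was highest. Elovl3, Soat1 and Cidea were called higher in UVB-exposed epidermis only when that library, in which they were above all other epidermis libraries, was left out. Whole skin of unexposed mice held more Soat1, Elovl3 and Cidea and less Dgat2 than their epidermis at week 25. That comparison called 55.6% of all genes, and its calls of Elovl3 and Cidea were lost when any of 3 single libraries was left out. Tumors held less Dgat2 than UVB-exposed epidermis, in a comparison that called 29.5% of all genes. Dgat2 levels in tumors overlapped those in whole skin.

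RNA was sequenced from skin of female SKH-1 mice, a hairless strain, so every group carries that strain's hair defect. The exposed groups were tumors of UVB-exposed mice at week 25 and epidermis of UVB-exposed mice at weeks 2, 15 and 25 of exposure, at 60 mJ/cm2 in 2 sessions per week. The unexposed groups were whole skin of unexposed mice at week 25 and epidermis of unexposed mice at weeks 2, 15 and 25. Each of the 8 groups holds 2 libraries, numbered 0 and 1 in the labels. Whether both libraries within a group stem from different mice is not labelled, nor is the age of the mice or any pooling of tissue, and every p-value below therefore reflects variation among libraries, which may be technical.

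Sebaceous glands open into the hair follicle, and their cells, the sebocytes, fill with lipid droplets until they burst and release sebum. Mouse sebum is rich in wax esters, triglycerides and sterol esters, whose fatty acids are lengthened and desaturated inside the sebocyte before they are joined to an alcohol. Scd1 and Scd3 encode stearoyl-CoA desaturases, which put a double bond into saturated fatty acids, and Fads2 encodes a desaturase of polyunsaturated fatty acids that in human sebocytes makes sapienic acid. Elovl3 encodes an elongase of long-chain fatty acids. Mogat1, Dgat2, Awat2 and Soat1 encode acyltransferases that make diglycerides, triglycerides, wax esters and cholesterol esters. Cidea encodes a protein that enlarges lipid droplets and is also known from brown fat. Mc5r encodes a melanocortin receptor that mice need for normal sebum output.

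Levels are in CPM, the counts of a gene scaled to a common library total and adjusted between libraries by the TMM method, and a gene was called when edgeR's quasi-likelihood test gave a Benjamini-Hochberg adjusted p under 0.05 over all genes tested. Library totals ran from 2905165 to 7959503 counts. The lowest total was that of control epidermis library 1 at week 2, called week 2 control 1 below, and results that rest on it are given with and without it. Keratinocyte markers summed to 3200 to 4070 CPM in UVB epidermis and 3810 to 6270 CPM in control epidermis. In tumors they summed to 2180 to 2290 CPM and in whole skin to 1790 to 2450 CPM. Skeletal muscle markers summed to at most 69.8 CPM in any epidermis library, against 1840 to 2000 CPM in tumors and 1800 to 3460 CPM in whole skin. White adipocyte markers summed to 41.8 to 108 CPM in UVB epidermis and 35.3 to 349 CPM in control epidermis, against 937 to 1070 CPM in tumors and 856 to 1820 CPM in whole skin. In such bulk tissue, fewer sebocytes and less RNA per sebocyte cannot be told apart.

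The genes lie in several parts of the genome (build mm10). Scd3 (chr19:44203288-44244016, plus strand) and Scd1 (chr19:44394450-44407709, minus strand) flank Scd2 and Scd4 in 1 cluster, with gaps of 49.7, 26.5 and 47.7 kb between neighbours. Elovl3 (chr19:46131899-46135694, plus strand) and Fads2 (chr19:10064164-10101503, minus strand) are on the same chromosome. Mogat1 (chr1:78511060-78538173, plus strand), Soat1 (chr1:156428108-156474328, minus strand), Dgat2 (chr7:99153663-99182713, minus strand) and Awat2 (chrX:100402222-100442717, minus strand) lie elsewhere. Scd1 and Scd3 belong to 1 gene family: of the 50-base stretches of their transcripts, 4.56% of those of Scd1 and 6.54% of those of Scd3 also occur in other genes. How the authors treated reads that map to several places is not given in the sources used here, so the split between Scd1 and Scd3 is uncertain to that extent. The gene models counted hold 29.8% of the GENCODE M21 exon bases of Mc5r, 45.8% of those of Fads2 and 48.9% of those of Soat1, so levels of these genes relative to the others depend on the models.

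RefSeq promoter sequences (build GRCm38, from 250 bases before to 50 bases after the start) were at hand for 5 of the genes, in 6 entries. Shown are those of Scd3 and Mogat1, which were called lower after UVB, and of Soat1, which was called higher without week 2 control 1. Capitals mark a CCAAT box (CCAAT) or a GC box (GGGCGG), searched on both strands, and no marked motif overlaps another.
Scd3 promoter, chr19:44203038-44203337, plus strand: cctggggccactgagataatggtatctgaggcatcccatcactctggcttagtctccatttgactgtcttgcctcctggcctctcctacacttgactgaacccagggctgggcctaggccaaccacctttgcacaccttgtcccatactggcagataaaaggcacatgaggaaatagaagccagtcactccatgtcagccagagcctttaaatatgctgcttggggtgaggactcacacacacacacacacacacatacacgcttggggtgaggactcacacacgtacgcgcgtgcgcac
Mogat1 promoter, chr1:78510810-78511109, plus strand: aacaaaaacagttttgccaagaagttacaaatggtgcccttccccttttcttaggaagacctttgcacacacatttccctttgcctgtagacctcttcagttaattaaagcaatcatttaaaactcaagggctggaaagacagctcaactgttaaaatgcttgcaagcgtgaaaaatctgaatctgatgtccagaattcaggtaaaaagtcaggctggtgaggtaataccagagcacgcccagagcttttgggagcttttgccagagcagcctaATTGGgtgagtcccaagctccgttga
Soat1 promoter, chr1:156474279-156474578, minus strand: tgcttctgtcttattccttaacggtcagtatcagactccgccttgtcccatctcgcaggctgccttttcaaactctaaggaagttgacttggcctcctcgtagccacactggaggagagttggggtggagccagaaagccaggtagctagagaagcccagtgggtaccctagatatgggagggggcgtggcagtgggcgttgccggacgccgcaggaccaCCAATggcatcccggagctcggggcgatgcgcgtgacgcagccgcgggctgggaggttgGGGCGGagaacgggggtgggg

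Of these, the Soat1 window held a CCAAT box beginning 30 bases before the start and a GC box beginning 29 bases after it, and the Mogat1 window held a CCAAT box on the minus strand beginning 24 bases after the start. The Scd3 window held neither. Among all 32851 RefSeq promoter windows of the same length, 37.4% held CCAAT and 35.7% held GGGCGG. None of the 6 entries held the sterol regulatory element TCACNCCAC, present in 1.24% of all windows, or the direct repeat 1 element of nuclear receptors, present in 0.0396%. A match or its lack describes these letters only.

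Levels per kilobase of exon show which of the genes the epidermis transcribes most. Averaged over the 12 epidermis libraries, Dgat2 stood highest at 215 CPM per kb, followed by Scd1 at 117, Elovl3 at 79.3, Cidea at 68.4, Awat2 at 19.3, Soat1 at 15.7 and Scd3 at 13.4 CPM per kb. Mogat1 (0.851), Mc5r (0.635) and Fads2 (0.543 CPM per kb) were near the limit of detection. Dgat2 exceeded Scd1 in 12 of 12 epidermis libraries and Cidea exceeded Awat2 in 12 of 12. Elovl3 exceeded Cidea in 8 of 12, Awat2 exceeded Soat1 in 8 of 12 and Soat1 exceeded Scd3 in 6 of 12, so these 3 pairs of neighbours were not separated beyond their spread, while Scd3 exceeded Mogat1 in 12 of 12. In the 4 libraries of tumor and whole skin the order at the top was the other way round, with Dgat2 below Scd1 in all 4, and Soat1 was above Awat2 in all 4.

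**Figure D1:**
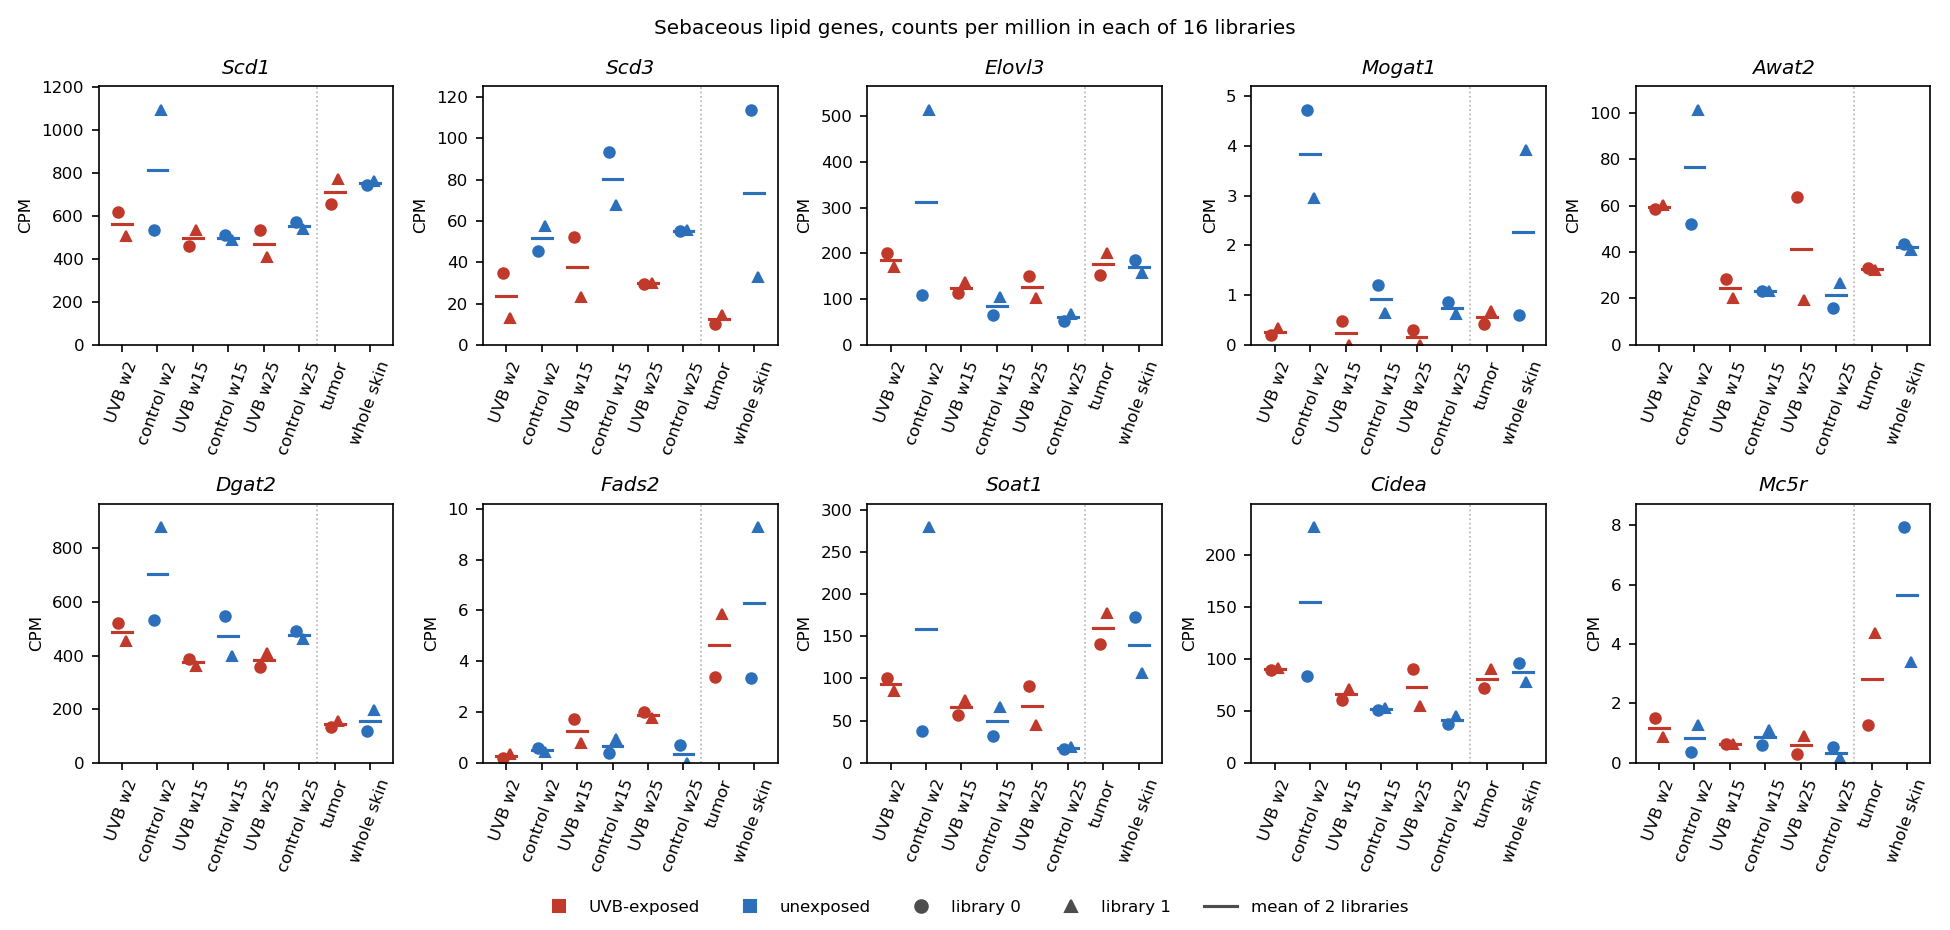
Level of each of the 10 genes in each of the 16 libraries, in CPM on linear axes that start at 0 and differ between panels. Red marks UVB-exposed and blue unexposed tissue, circles are library 0, triangles library 1 and bars the mean of the 2 libraries; week 2 control 1 stands at the top of the epidermis libraries for Scd1, Elovl3, Awat2, Dgat2, Soat1 and Cidea.

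Week 2 control 1 differed from every other epidermis library in 6 of the 10 genes. Its Elovl3 was 515 CPM, while the other 11 epidermis libraries ran from 52.9 to 200.2 CPM. Its Soat1 was 279 CPM, against 16.9 to 101 CPM in the other 11, and its Cidea was 227 CPM, against 37.8 to 91.6 CPM. Scd1 (1096 against at most 619 CPM), Dgat2 (878 against at most 548 CPM) and Awat2 (102 against at most 63.6 CPM) were also at their epidermis maximum there.
The log2 ratio of week 2 control 1 over week 2 control 0 was 2.9 for Soat1, 2.24 for Elovl3, 1.43 for Cidea, 1.04 for Scd1, 0.96 for Awat2 and 0.72 for Dgat2. Genes of like abundance had median ratios of -0.28 for the bin of Soat1, 0.45 for that of Elovl3, Cidea and Scd1, 0.03 for that of Awat2 and 0.88 for that of Dgat2. The ratio of Dgat2 was therefore below, and those of the other 5 above, the median of their bin. Scd3 (57.7 CPM), Mogat1 (2.95), Fads2 (0.42) and Mc5r (1.26 CPM) lay within the range of the other epidermis libraries. Hair follicle markers summed to 4163 CPM in week 2 control 1 and 4311 CPM in week 2 control 0, and Lpl, a lipase of adipocytes and other cells, was at 227 and 30.9 CPM in these libraries. Markers of RNA quality and dissociation stress summed to 4969 CPM in week 2 control 1 and to 2594 to 3295 CPM in the other 11 epidermis libraries. The sums of keratinocyte markers (6269 CPM) and of the fatty acid (6518 CPM) and cholesterol (7826 CPM) lists were also highest in epidermis there. The part of these differences in the levels of the 10 genes was not tested.

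Scd3 was called lower in UVB epidermis as the mean over weeks, while Scd1, its neighbour in the cluster, was not called. At week 2 Scd3 had 34.8 and 12.8 CPM in UVB epidermis and 45.5 and 57.7 CPM in control epidermis. At week 15 it had 52.4 and 23.0 CPM in UVB epidermis and 93.1 and 67.5 CPM in control epidermis. At week 25 it had 29.4 and 30.1 CPM in UVB epidermis and 55.2 and 55.5 CPM in control epidermis.
Within each week both UVB libraries were below both controls. Taken over weeks, the highest UVB library (week 15 library 0) exceeded the lowest control (week 2 control 0), so the 6 UVB and 6 control libraries overlapped. The log2 ratio of UVB over control as the mean over weeks was -1.05 ± 0.24 (SE), with an adjusted p of 0.00644 by edgeR's quasi-likelihood test, and -0.98 ± 0.25 (adjusted p 0.0124) without week 2 control 1. At single weeks it was -1.15, -1.11 and -0.89 at weeks 2, 15 and 25, with adjusted p of 0.0904, 0.165 and 0.156, none of which passed. At week 2 it was called when UVB library 0 was left out (-2.03, adjusted p 0.0297) and was -0.60 (adjusted p 0.428) without UVB library 1.

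Scd1 had 619 and 505 CPM in UVB epidermis and 534 and 1096 CPM in control epidermis at week 2. At week 15 it had 460 and 535 CPM in UVB epidermis and 510 and 490 CPM in control epidermis, and at week 25 it had 533 and 408 CPM in UVB epidermis and 571 and 539 CPM in control epidermis. Only at week 25 were both UVB libraries below both controls. Its mean log2 ratio over weeks was -0.28 ± 0.17 (adjusted p 0.234) and -0.08 ± 0.10 (adjusted p 0.591) without week 2 control 1.
As a share of the summed Scd1 and Scd3 level per kb, Scd3 made up 7.27% and 3.41% in UVB epidermis and 10.6% and 6.84% in control epidermis at week 2. At week 15 the share was 13.7% and 5.65% in UVB epidermis and 20.3% and 16.1% in control epidermis, and at week 25 it was 7.15% and 9.33% in UVB epidermis and 11.9% and 12.6% in control epidermis. The share in the UVB libraries was below that of the controls at weeks 15 and 25 without overlap, and overlapped at week 2.

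Mogat1, the monoglyceride acyltransferase, was almost undetected in UVB epidermis. At week 2 it had 0.19 and 0.35 CPM in UVB epidermis (3 counts in all) and 4.74 and 2.95 CPM in control epidermis (32 counts). At week 15 it had 0.47 and 0 CPM in UVB epidermis (3 counts) and 1.20 and 0.64 CPM in control epidermis (10 counts), and at week 25 it had 0.31 and 0 CPM in UVB epidermis (2 counts) and 0.86 and 0.63 CPM in control epidermis (9 counts). Both UVB libraries were below both controls at each week, and the 6 UVB libraries were all below the 6 controls.
Scaled to library size, the control level was 15.4 times the UVB level at week 2 (95% counting interval 4.83 to 78.8). It was 4.50 times at week 25 (0.93 to 42.8). The intervals at weeks 15 and 25 both include 1. The log2 ratio at week 2 was -3.80 ± 0.90 (adjusted p 0.018), and the mean over weeks was -2.73 ± 0.62 (adjusted p 0.00637), or -2.77 ± 0.66 (adjusted p 0.00906) without week 2 control 1. The week 2 call was lost when week 2 control 0 (-3.33, adjusted p 0.0587), UVB library 0 (-3.46, adjusted p 0.108) or UVB library 1 (-4.27, adjusted p 0.117) was left out. Mogat1 passed the filter on low counts only through the week 2 controls, the group where it was highest, so its call describes these libraries and is no support for the other genes. Within the controls, it had 4.74 and 2.95 CPM at week 2, 1.20 and 0.64 CPM at week 15 and 0.86 and 0.63 CPM at week 25, with week 2 above both later weeks and no call (adjusted p 0.119 at week 15 and 0.0557 at week 25 over week 2).

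Dgat2, which makes triglycerides, was called slightly lower in UVB epidermis as the mean over weeks, a call that rested on single libraries. At week 2 it had 523 and 455 CPM in UVB epidermis and 532 and 878 CPM in control epidermis. At week 15 it had 388 and 362 CPM in UVB epidermis and 548 and 397 CPM in control epidermis, and at week 25 it had 358 and 410 CPM in UVB epidermis and 491 and 462 CPM in control epidermis. Both UVB libraries were below both controls at each week. The mean log2 ratio over weeks was -0.41 ± 0.13 (adjusted p 0.036), but without week 2 control 1 it was -0.27 ± 0.10 (adjusted p 0.0508) and not called, and leaving out any of 8 libraries in turn ended the call (adjusted p 0.0508 to 0.111). These were week 2 control 1, both week 2 UVB libraries, week 15 control 0, both week 15 UVB libraries, week 25 control 0 and week 25 UVB library 0. A loess scaling gave -0.11 (adjusted p 0.334).
Its counts per base reached 65.7% of the highest of any gene in the same library. Duplicate reads were removed before counting, per the file headers, which limits the counts an abundant gene can reach.

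Elovl3, Soat1 and Cidea, which lengthen fatty acids, esterify cholesterol and enlarge droplets, were called higher in UVB epidermis without week 2 control 1 and not with it. Elovl3 had 200.2 and 170 CPM in UVB epidermis and 109 and 515 CPM in control epidermis at week 2. It had 113 and 137 CPM in UVB epidermis and 65.6 and 104 CPM in control epidermis at week 15, and 150.1 and 103 CPM in UVB epidermis and 52.9 and 67.8 CPM in control epidermis at week 25. At weeks 15 and 25 both UVB libraries were above both controls, and at week 2 they lay between the 2 controls.
Soat1 had 101 and 85.2 CPM in UVB epidermis and 37.3 and 279 CPM in control epidermis at week 2. It had 56.8 and 74.2 CPM in UVB epidermis and 31.8 and 66.3 CPM in control epidermis at week 15, and 91.0 and 44.3 CPM in UVB epidermis and 16.9 and 18.6 CPM in control epidermis at week 25. The groups overlapped at weeks 2 and 15 and did not at week 25.
Cidea had 89.8 and 91.6 CPM in UVB epidermis and 83.7 and 227 CPM in control epidermis at week 2. It had 60.6 and 71.3 CPM in UVB epidermis and 51.0 and 52.6 CPM in control epidermis at week 15, and 90.4 and 54.6 CPM in UVB epidermis and 37.8 and 45.5 CPM in control epidermis at week 25. Again both UVB libraries were above both controls at weeks 15 and 25 only.

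With all 12 epidermis libraries none of these 3 genes was called as the mean over weeks, with log2 ratios of 0.27 ± 0.38 for Elovl3 (unadjusted p 0.491), 0.46 ± 0.52 for Soat1 (adjusted p 0.526) and 0.10 ± 0.29 for Cidea (adjusted p 0.812) by edgeR's quasi-likelihood test. Without week 2 control 1 all 3 were called higher: Elovl3 at 0.80 ± 0.16 (adjusted p 0.00366), Soat1 at 1.18 ± 0.30 (adjusted p 0.012) and Cidea at 0.45 ± 0.15 (adjusted p 0.0385). With weeks 15 and 25 only, a choice made after the data were seen, they were also called, at 0.82, 1.15 and 0.59. Macrophage markers summed to 65.3 to 136 CPM in UVB epidermis and 31.4 to 62.3 CPM in control epidermis. At week 2 these sums were 67.5 and 65.3 CPM in UVB epidermis and 62.3 and 59.8 CPM in control epidermis. Lyz2, the most abundant marker over all libraries, was lower with UVB at week 2 (5.1 and 3.97 against 20.65 and 19.4 CPM). It overlapped at week 15 and was higher with UVB at week 25 (17.5 and 8.7 against 3.96 and 0.94 CPM). Of the 6 markers, 3 (Csf1r, Mrc1 and Cd163) were called higher as the mean over weeks, with or without week 2 control 1, and 4 at week 25, and their part in the levels of the 3 genes was not tested. In the 11 libraries Elovl3 averaged 146 ± 36.1 CPM in UVB epidermis (SD, n = 6) and 79.9 ± 25.0 CPM in control epidermis (SD, n = 5), Soat1 averaged 75.4 ± 21.5 and 34.2 ± 19.9 CPM in these groups, and Cidea 76.4 ± 16.5 and 54.1 ± 17.6 CPM. At week 25 alone the log2 ratios were 1.07, 1.94 and 0.81 with adjusted p of 0.177, 0.0823 and 0.155, and none passed.
UVB library 0 at week 25 was the higher of its pair for all 3 genes. It also held more fibroblast marker RNA, with a summed 141 CPM against 34.0 CPM in UVB library 1 and 6.38 and 3.75 CPM in the week 25 controls, where 5 of 5 fibroblast markers tested were called higher in UVB epidermis. The part of dermal cells in the week 25 values was not tested.

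**Figure D2:**
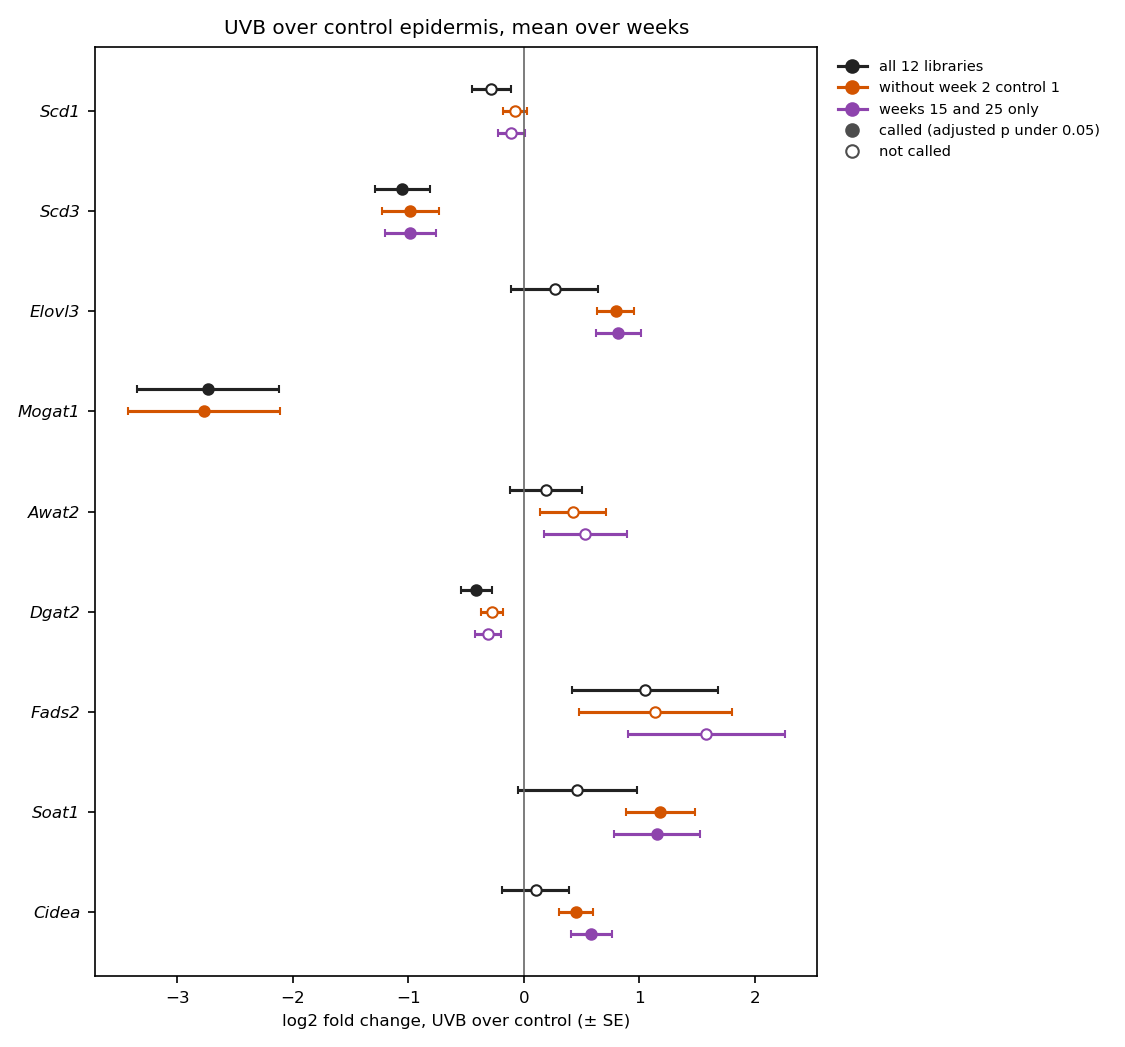
Log2 ratio of UVB over control epidermis as the mean over weeks, with the standard error, for each gene tested; filled points passed an adjusted p of 0.05 in edgeR's quasi-likelihood test. Elovl3, Soat1 and Cidea move to the right and are called without week 2 control 1 (orange) and with weeks 15 and 25 only (purple), while Scd3 stays near -1 in all 3 fits.

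Awat2, a wax synthase, was not called between UVB and control epidermis. It had 58.4 and 60.3 CPM in UVB epidermis and 52.3 and 102 CPM in control epidermis at week 2. It had 28.3 and 20.3 CPM in UVB epidermis and 23.2 and 23.0 CPM in control epidermis at week 15, and 63.6 and 19.1 CPM in UVB epidermis and 16.03 and 26.6 CPM in control epidermis at week 25. All 4 week 2 libraries were above all 4 week 15 libraries, and of the 4 week 25 libraries only UVB library 0 reached the week 2 range.
The mean log2 ratio of UVB over control was 0.19 ± 0.31 (adjusted p 0.67) and 0.43 ± 0.29 (adjusted p 0.269) without week 2 control 1. Week 15 over week 2 gave -1.29 ± 0.49 in UVB epidermis (adjusted p 0.173) and -1.74 ± 0.50 in control epidermis (adjusted p 0.0912), neither called.

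Fads2, and Mc5r, which lies on chromosome 18 like Cidea, were scarce in epidermis. Fads2 had 0.19 and 0.35 CPM in UVB epidermis and 0.57 and 0.42 CPM in control epidermis at week 2, 1.73 and 0.78 CPM in UVB epidermis and 0.40 and 0.95 CPM in control epidermis at week 15, and 1.98 and 1.77 CPM in UVB epidermis and 0.69 and 0 CPM in control epidermis at week 25. The UVB libraries were the lower pair at week 2, overlapped the controls at week 15 and were the higher pair at week 25, where the log2 ratio was 2.43 ± 0.89 (adjusted p 0.0736). Fads2 passed the filter only through UVB libraries of weeks 15 and 25, where it was highest. Mc5r ran from 0.31 to 1.51 CPM in UVB epidermis and from 0.16 to 1.26 CPM in control epidermis, with 28 and 19 counts in all, and was not tested there.

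Counted over the genes, at week 2 none of 9 tested was called higher and 1 (Mogat1) was called lower, where 17.8% of all 13478 genes were called (8.09% higher and 9.74% lower). Without week 2 control 1 the count at week 2 was again Mogat1 alone (7.97% of all genes called), without week 2 control 0 it was 5 lower (Scd1, Elovl3, Dgat2, Soat1 and Cidea), without UVB library 0 it was Scd3 alone, and without UVB library 1 it was 0. At week 15 no gene of the 9 was called (1.85% of all genes higher and 1.64% lower, 3.49% in all), with 1 at an unadjusted p under 0.05 and none called by DESeq2. At week 25 none was called (21.5% of all genes), with 2 at an unadjusted p under 0.05 and none by DESeq2, and 1 was called without control 0 (Fads2, adjusted p 0.0452, against a lone control with no counts) or without UVB library 1 (Awat2).
As the mean over weeks, 3 of 9 were called lower (Scd3, Mogat1 and Dgat2) and none higher, where 15.1% of all genes were called lower and 14.4% higher, 29.5% in all. Without week 2 control 1, 3 were higher and 2 lower, where 16.6% of all genes were higher and 15.6% lower (32.2% in all). With weeks 15 and 25 only, 3 were higher and 1 lower of 8 tested, where 14.5% of all genes were higher and 13.6% lower (28.1% in all). The genes called higher in the other fits were not among those called with all 12.
As the mean over weeks Mogat1 alone had all 6 UVB libraries on 1 side of the 6 controls, below them. Of all genes, 4.15% lay below and 5.37% above. Mogat1 passed the filter on low counts only through the week 2 controls, where it was highest. Its calls and its separation in these counts are therefore no support. Within weeks, both UVB libraries lay below both controls for 4 of 9 genes at week 2, 3 at week 15 and 4 at week 25, and above for 0, 2 and 4. Over all genes 28.3%, 23.5% and 35.4% lay below and 31.7%, 28.5% and 35.4% above. The 4 above at week 25 include Fads2, which passed the filter only through UVB libraries of weeks 15 and 25, where it was highest. Its place among them is no support either. The median log2 ratio of the 9 genes was -0.79, 0.05 and 0.81 at weeks 2, 15 and 25, while that of all genes was -0.03, -0.01 and 0.01, and without week 2 control 1 the week 2 median of the 9 was 0.06.

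**Figure D3:**
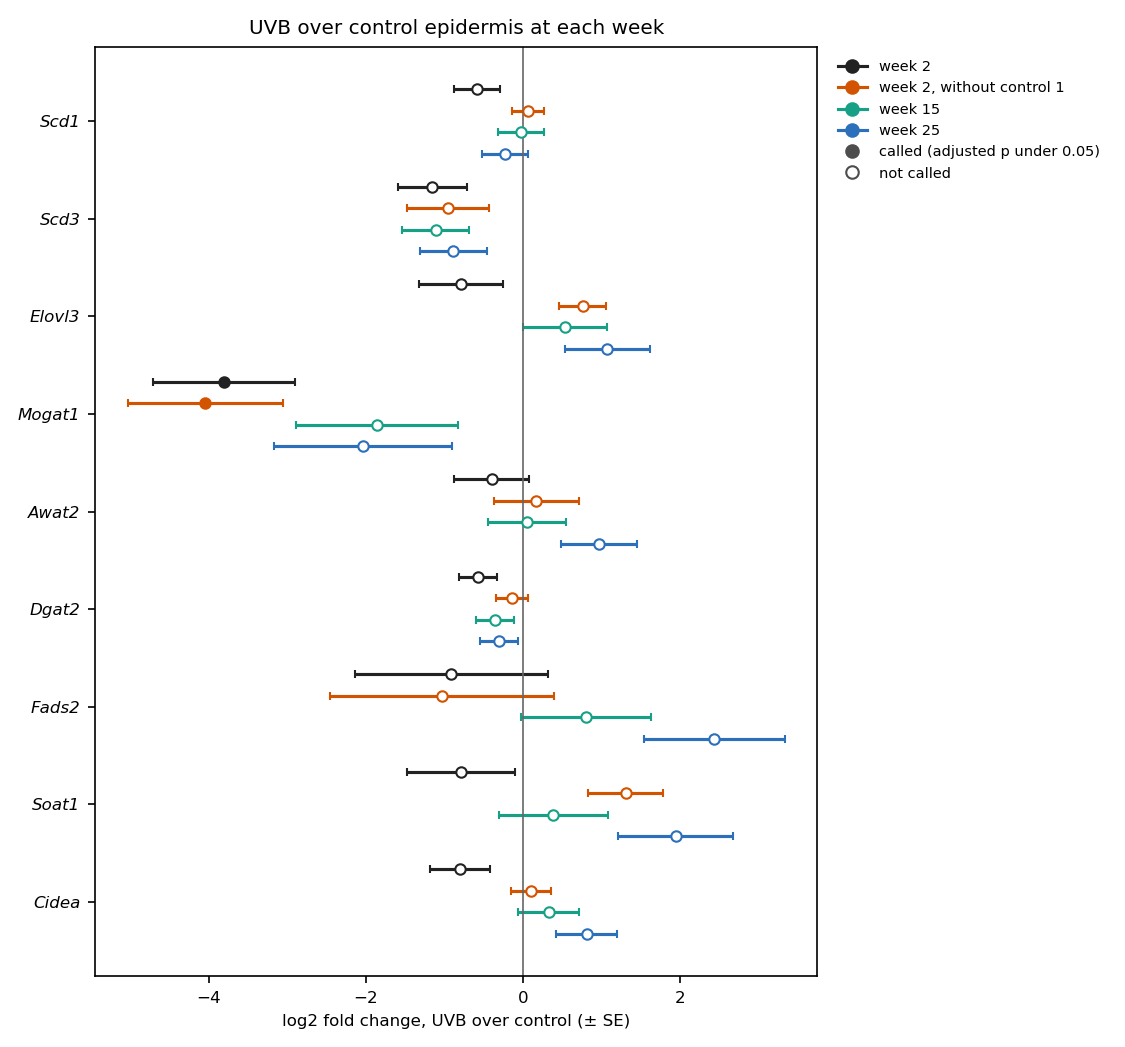
Log2 ratio of UVB over control epidermis at weeks 2, 15 and 25, with the standard error, and at week 2 without week 2 control 1 (orange). Only Mogat1 at week 2 was called (filled points). For Elovl3, Soat1, Cidea, Awat2 and Scd1 the week 2 ratio is below 0 with week 2 control 1 (black) and above 0 without it.

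The effect of UVB at week 25 minus that at week 2 was above 0 for all 9 genes tested, with a median of 1.61, against 0.09 over all genes. None was called, where 7.92% of all genes were (3.33% above 0 and 4.59% below). Mogat1 passed the filter only through the week 2 controls and Fads2 only through UVB libraries of weeks 15 and 25. Their direction is therefore no support. The shared direction rests on week 2 control 1. Without it the difference was below 0 for Scd1 (-0.29) and Dgat2 (-0.17), near 0 for Scd3 (0.07) and above 0 for the other genes tested. With all 12 libraries, 3 were at an unadjusted p under 0.05, and DESeq2 called 1, Cidea. The differences on the log2 scale were 2.73 ± 1.006 for Soat1 (adjusted p 0.111), 1.87 ± 0.76 for Elovl3 (adjusted p 0.14) and 1.61 ± 0.54 for Cidea (adjusted p 0.0876). They rest on the week 2 controls: without week 2 control 0 these 3 genes were called, and without week 2 control 1 none was. The difference between weeks 15 and 2 gave no call among the 9 genes or among all genes (0%), with 1190 genes and none of the 9 at an unadjusted p under 0.05, although 2 of the 9 (Elovl3 and Cidea) were called without week 2 control 0.

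Among unexposed mice, 4 of the 9 genes were called lower at week 25 than at week 2 (5.24% of all genes were called lower and 8.47% higher, 13.7% in all): Soat1 at -3.18 ± 0.76 (adjusted p 0.0263), Elovl3 at -2.40 ± 0.56 (adjusted p 0.0247), Cidea at -1.92 ± 0.39 (adjusted p 0.0165) and Awat2 at -1.87 ± 0.50 (adjusted p 0.0362). Cidea had 37.8 and 45.5 CPM at week 25, against 83.7 and 227 CPM at week 2. Both week 25 libraries were below both week 2 libraries for 6 of the 9 genes (31% of all genes) and above for none (33.7%). The 6 include Mogat1, which passed the filter on low counts only through the week 2 controls, so it is no support. The ratios without week 2 control 1 were -1.08 for Soat1, -0.86 for Elovl3, -1.02 for Cidea and -1.30 for Awat2, with adjusted p of 0.245, 0.155, 0.0687 and 0.223 and no call (2.52% of all genes). None of the 9 was called either without week 25 control 0 or without week 25 control 1, and 6 were without week 2 control 0.
Week 15 over week 2 in controls gave no call among the 9 (0.0223% of all genes called), with 7 at an unadjusted p under 0.05. The 7 include Mogat1, with the same limit from the filter. Both week 15 libraries were below both week 2 libraries for 5 of the 9, again with Mogat1 among them (22.1% of all genes). They were above for 1 of the 9, Scd3 (26.2%). DESeq2 called 3 of them, Elovl3, Awat2 and Cidea, and 6 were called without week 2 control 0. In UVB epidermis, week 15 over week 2 (0.267% of all genes called) and week 25 over week 2 (4.52%, of which 4.04% higher) called none of the 9 by edgeR or DESeq2, with 1 at an unadjusted p under 0.05 in each.
These comparisons share their week 2 libraries with those of UVB at week 2.

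Across libraries the genes fell into a group that varied together and others that did not. Over the 12 epidermis libraries the Pearson correlation of log2 CPM was 0.96 between Elovl3 and Cidea, 0.96 between Elovl3 and Soat1, 0.90 between Cidea and Soat1 and 0.89 between Awat2 and Cidea. Without week 2 control 1 these were 0.91, 0.94, 0.82 and 0.88, so the co-variation does not rest on that library. Scd1 with Elovl3 gave 0.71 with it and 0.10 without it. Scd3 ran against the group, at -0.31 with Elovl3 over 12 libraries and -0.71 over 11, and Dgat2 with Elovl3 gave 0.48 and -0.31. These are descriptions over libraries that differ in week, UVB exposure and depth.

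**Figure D4:**
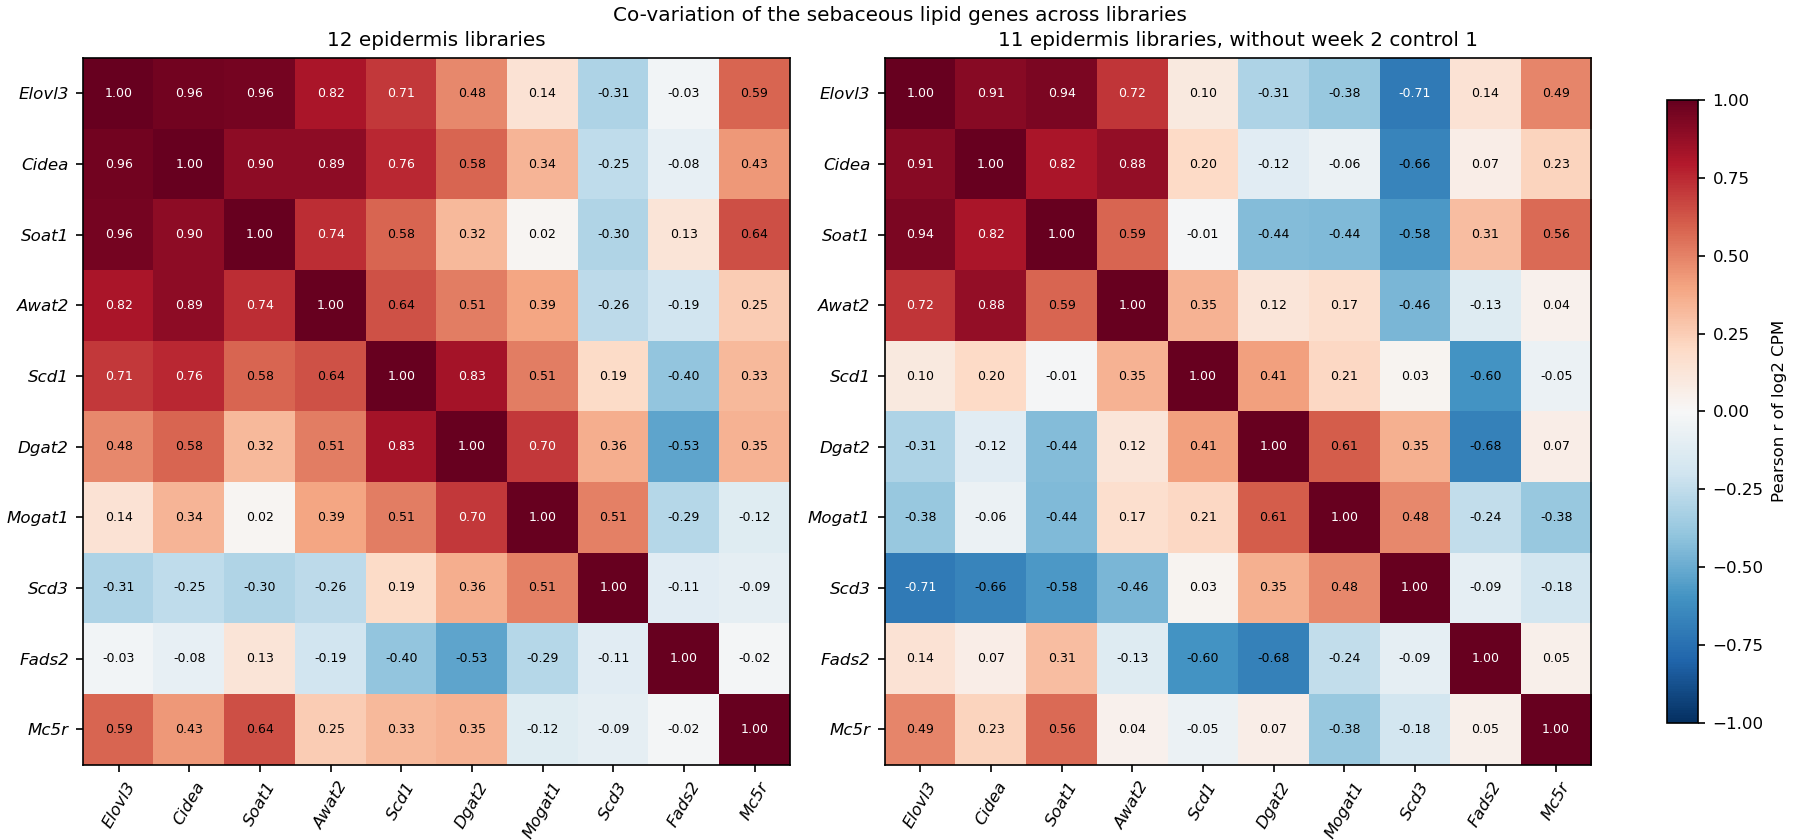
Pearson correlation of log2 CPM between each pair of the 10 genes over the 12 epidermis libraries (left) and over the 11 without week 2 control 1 (right). Elovl3, Cidea, Soat1 and Awat2 form a block of high values (0.74 to 0.96 on the left, 0.59 to 0.94 on the right), while with these 4 genes Scd1 has 0.58 to 0.76 on the left and -0.01 to 0.35 on the right, Dgat2 has 0.32 to 0.58 and -0.44 to 0.12, and Scd3 is below 0 in both.

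Among 13698 other genes that averaged 1 CPM or more, the 10 whose log2 level was most like the mean standardised level of the 10 members over all 16 libraries were Mgll, Lhpp, Proca1, Tlcd2, Pxmp4, Cers4, Fa2h, Lrrc9, Agpat2 and Mfng, with Pearson r of 0.895 to 0.945. Their r without week 2 control 1 ran from 0.812 to 0.897. Mgll, a monoglyceride lipase, led with 0.945, and it ran from 186 to 957 CPM with its maximum in week 2 control 1. Each member is itself part of that mean, which raises its r. Among the members, Cidea (0.90), Elovl3 (0.87) and Scd1 (0.86) followed the mean level most closely over all 16 libraries, while Scd3 (0.10) and Dgat2 (-0.11) did not. Of the white adipocyte markers in epidermis, Lep, the fat hormone leptin, had no counts in 9 of 12 libraries and Adipoq, the fat hormone adiponectin, was at most 5.72 CPM. Fabp4, a fatty acid carrier, ran from 1.38 to 132 CPM and Lpl from 15.6 to 227 CPM, and Fabp4 was called lower in UVB epidermis at week 2 (-4.39 ± 0.66, adjusted p 0.00422). Ucp1, the uncoupling protein of brown fat, ran from 0.35 to 7.58 CPM with its maximum in week 2 control 1.

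Other genes of lipid metabolism came from lists drawn up for this tissue. They are set against 14.4% of all genes called higher and 15.1% called lower as the mean over weeks. These shares were 16.6% and 15.6% without week 2 control 1 and 14.5% and 13.6% with weeks 15 and 25 only. At week 25 alone they were 10.6% and 10.9%. As the mean over weeks, 3 of 17 tested genes of fatty acid synthesis, elongation and desaturation were called lower and none higher: Acaca, which makes malonyl-CoA (-0.85 ± 0.19, adjusted p 0.00509), and the elongases Elovl6 (-0.65) and Elovl1 (-0.54). At week 25, Fads1, a desaturase that acts after Fads2, was called higher (2.26 ± 0.41, adjusted p 0.00606), and Acly, Acaca and Fasn, 3 genes of fatty acid synthesis, were called lower. Fads1 had 19.1 and 10.99 CPM in UVB epidermis and 3.62 and 2.66 CPM in control epidermis at week 25, without overlap.
Of 21 genes of cholesterol synthesis and uptake, 3 were called lower as the mean over weeks (Dhcr7, Hmgcs1 and Fdps) and none higher, and without week 2 control 1 only Dhcr7 was. Of 8 tested genes of glyceride, wax and sterol ester acyltransferases and their partners, 1 was called higher, Far1, which makes fatty alcohols (0.99 ± 0.33, adjusted p 0.0409). Without week 2 control 1 this list gave 4 higher, namely Far1 at 1.403, the triglyceride synthase Dgat1 at 0.55, Dgat2l6 at 1.006 and the wax synthase Awat1, and 5 were higher and 1 lower with weeks 15 and 25 only. The median log2 ratio of the 8 tested was 0.33 with all 12 libraries (-0.02 for all genes) and 0.54 without week 2 control 1 (-0.01 for all genes).
Of 12 tested genes of lipid droplet proteins and lipases, 1 was called lower, the triglyceride lipase Pnpla2 (-0.57 ± 0.11, adjusted p 0.00221), and without week 2 control 1 Plin2, a droplet coat protein (0.50), and Hilpda (0.87) were called higher. Of 9 genes of sebocyte identity, Prdm1 (-0.56) and Gata6 (-0.66), both transcription factors, were called lower, and neither was without week 2 control 1. Of the melanocortin list only Agrp, an antagonist of melanocortin receptors, was tested in epidermis and it was not called, and Pomc, the precursor of the ligands, and Mc4r had no counts in any epidermis library.
Hair follicle markers moved with UVB in the same libraries. As the mean over weeks 15 of 16 were called lower, and their sum was 110 to 632 CPM in UVB epidermis against 1300 to 4310 CPM in control epidermis. The sebocyte gene list summed to 1470 to 1970 CPM in UVB epidermis and 1540 to 3380 CPM in control epidermis. Whether the lower follicle marker RNA has a part in the values of the 10 genes was not tested.

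No member of the 9 genes tested was called between tumors and whole skin. In a comparison of 4 libraries that called none of 14661 genes (0%), 813 genes and 1 of the 9 were at an unadjusted p under 0.05, and DESeq2 called 1 of the 9. That gene was Scd3. It had 10.3 and 14.6 CPM in tumors and 114 and 32.8 CPM in whole skin, so both tumors were below both whole skin libraries, which differed widely from each other. Its log2 ratio was -2.65 ± 0.64 (p 0.00724, adjusted p 0.891), and it was -1.44 without whole skin library 0 and -3.27 without library 1. By edgeR, without whole skin library 0, 4 genes were called (Scd3, Mogat1, Dgat2 and Soat1), and without library 1, 2 were (Scd3 and Mc5r), each from 1 residual degree of freedom.
As a share of the 2 desaturases per kb, Scd3 was 2.14% and 2.58% in tumors, the lowest of the 16 libraries, and 17.6% and 5.65% in whole skin. Scd1 had 656 and 770.2 CPM in tumors and 742 and 765 CPM in whole skin, with a log2 ratio of -0.15 ± 0.23 (adjusted p 0.986). Its counts reached 75.3% of the highest counts per base in whole skin library 0.
Awat2 had 33.1 and 32.5 CPM in tumors and 43.4 and 41.0 CPM in whole skin, also without overlap (-0.44 ± 0.25, adjusted p 0.911), so 2 of the 9 lay lower in tumors where 12.9% of all genes did. Mogat1 had 0.42 and 0.68 CPM in tumors and 0.61 and 3.92 CPM in whole skin and was not tested. Elovl3 had 154 and 201 CPM in tumors and 185 and 157 CPM in whole skin, and Cidea had 72.2 and 89.9 CPM in tumors and 96.2 and 77.8 CPM in whole skin. Soat1 had 141 and 178 CPM in tumors and 173 and 107 CPM in whole skin, and these 3 genes overlapped, with log2 ratios of -0.03, -0.18 and 0.11.

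Against UVB epidermis of the same week, tumors had less Dgat2. It had 132 and 158 CPM in tumors and 358 and 410 CPM in UVB epidermis, without overlap, a log2 ratio of -1.39 ± 0.26 (adjusted p 0.00151). Whole skin of unexposed mice had 118 and 196 CPM of Dgat2, which overlapped the tumors. Dgat2 was the only one of 10 genes called, where 29.5% of all 15126 genes were. Both tumors were above both UVB libraries for 6 genes and below for 2, compared with 39.7% and 37.6% of all genes. Scd3, at 10.3 and 14.6 CPM in tumors and 29.4 and 30.1 CPM in UVB epidermis, was the other gene below (-1.24 ± 0.56, adjusted p 0.115). The 6 above include Fads2 and Mc5r. Mc5r passed the filter on low counts only through whole skin and tumor libraries, where it was highest. Fads2 passed through these and UVB epidermis. The place of Mc5r among the 6 and its ratio are therefore no support. Mc5r had 1.27 and 4.37 CPM in tumors and 0.31 and 0.89 CPM in UVB epidermis (2.25 ± 0.83, adjusted p 0.0562), it was called when tumor library 0 was left out (2.87, adjusted p 0.0398), and under a loess scaling its ratio was -0.003 (adjusted p 0.998).

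Whole skin of unexposed mice held more Soat1, Fads2, Mc5r, Elovl3 and Cidea than their epidermis, and less Dgat2. Of the 10 genes, 5 were called higher and 1 lower, where 31.9% of all genes were called higher and 23.7% lower. Soat1 had 173 and 107 CPM in whole skin and 16.9 and 18.6 CPM in control epidermis at week 25 (3.01 ± 0.69, adjusted p 0.0025). Fads2 had 3.36 and 9.27 CPM in whole skin and 0.69 and 0 CPM in control epidermis (4.18 ± 0.90, adjusted p 0.0016), and Mc5r had 7.93 and 3.39 CPM in whole skin and 0.52 and 0.16 CPM in control epidermis (4.08 ± 0.88, adjusted p 0.00161). These 3 did not overlap between the tissues, and Mc5r passed the filter only through whole skin and tumor libraries and Fads2 through these and UVB epidermis, where they were highest.
Elovl3 had 185 and 157 CPM in whole skin and 52.9 and 67.8 CPM in control epidermis (1.54 ± 0.50, adjusted p 0.0178), and Cidea had 96.2 and 77.8 CPM in whole skin and 37.8 and 45.5 CPM in control epidermis (1.102 ± 0.36, adjusted p 0.0185). Without whole skin library 0 the count was 5, with Mogat1 among the genes called higher. The calls of Elovl3 and Cidea were lost without whole skin library 0 (1.403 and 0.92, adjusted p 0.057 and 0.0787), without control 0 (adjusted p 0.112 and 0.119) or without control 1 (adjusted p 0.0584 and 0.0591). Dgat2 had 118 and 196 CPM in whole skin and 491 and 462 CPM in control epidermis (-1.57 ± 0.26, adjusted p 0.00029). Its direction held under each scaling tried, but a loess scaling gave -0.44 (adjusted p 0.108), and under it Fads2 (1.25) and Mc5r (0.96) were not called either.
Scd1 had 742 and 765 CPM in whole skin and 571 and 539 CPM in control epidermis (0.48 ± 0.26, adjusted p 0.136), and Awat2 had 43.4 and 41.0 CPM in whole skin and 16.03 and 26.6 CPM in control epidermis (1.02 ± 0.45, adjusted p 0.0675), each without overlap and not called. Scd3, at 114 and 32.8 CPM in whole skin and 55.2 and 55.5 CPM in control epidermis, overlapped, and so did Mogat1 at 0.61 and 3.92 CPM in whole skin and 0.86 and 0.63 CPM in control epidermis. All 9 white adipocyte markers were called higher in whole skin. Of 21 cholesterol synthesis and uptake genes, 18 were called lower in whole skin than in control epidermis (23.7% of all genes). In tumors, 14 of the 21 were called lower than in UVB epidermis (12.7% of all genes). The part of fat, muscle, dermis and the lower keratinocyte marker RNA in these differences was not tested.

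**Figure D5:**
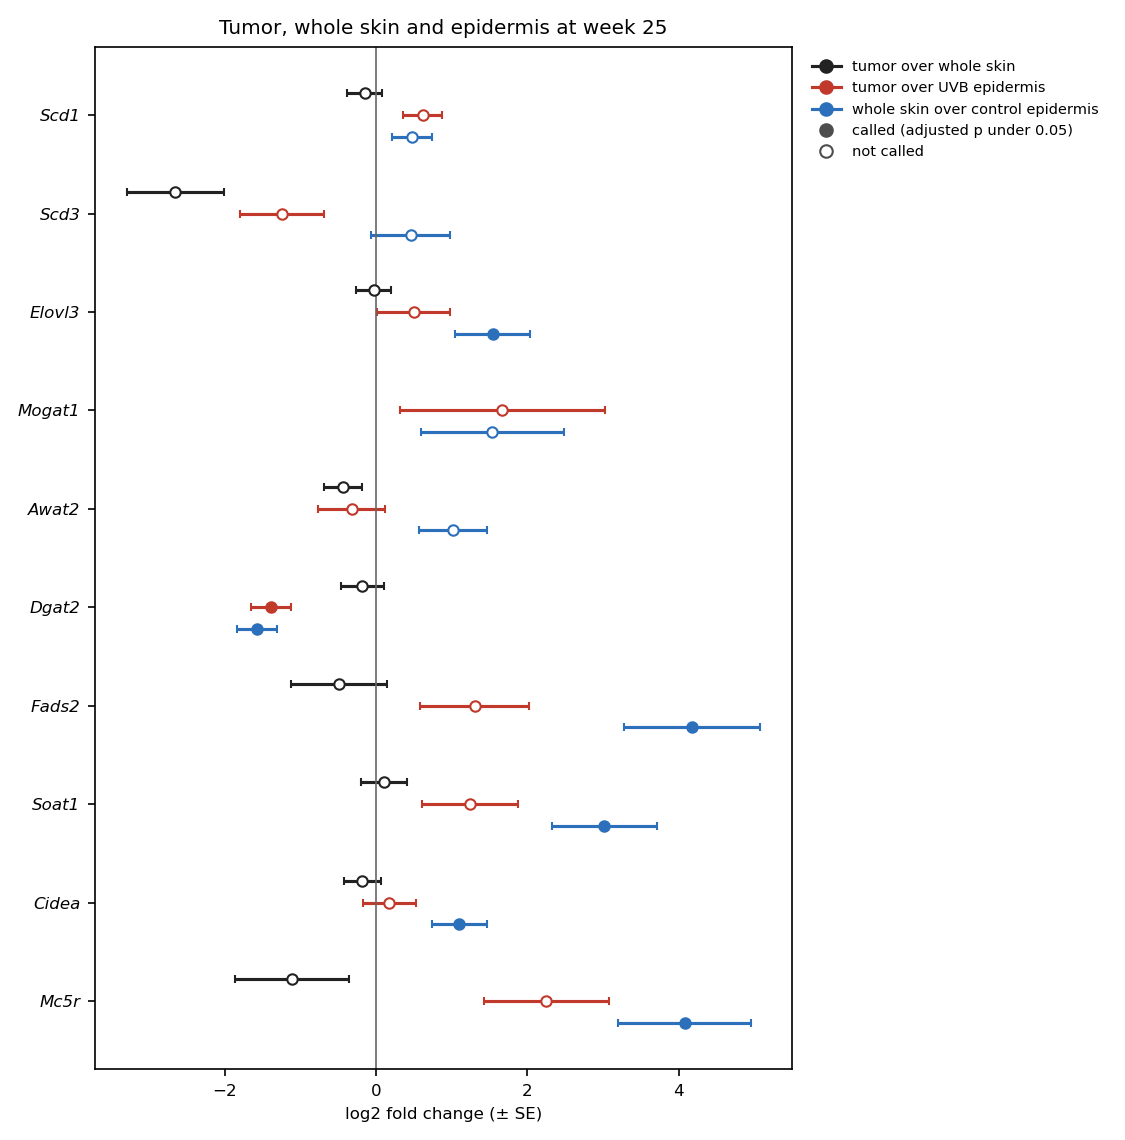
Log2 ratios at week 25 with standard errors: tumor over whole skin (black), tumor over UVB epidermis (red) and whole skin over control epidermis (blue), with filled points for genes called by edgeR. Dgat2 is below 0 and called in both comparisons against epidermis, and Scd3 has the lowest ratio of tumor over whole skin, -2.65, without a call.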

How the data were processed

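RNA of 16 mouse skin libraries was sequenced. The submitters' processing notes name HISAT2, Picard, featureCounts, DESeq2 and the build mm10, with no versions, and duplicates were removed before counting, per the file headers. The deposited values are the authors' raw read counts per gene. For the annotation release, the strand setting and multiply mapped reads, the settings are not given in what was used here. DNA methylation was not analysed here.

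From the counts, edgeR 4.0.16 (R 4.3.3) with TMM scaling, filterByExpr (minimum count 10, minimum total 15) and quasi-likelihood tests was run over all genes, in fits of 12 epidermis, 4 whole skin and tumor, or all 16 libraries, with Benjamini-Hochberg adjustment. Comparisons of groups come from a model with 1 term per group, and the mean over weeks from a model of week and UVB. Correlations used log2(CPM + 0.5). Counting intervals are exact 95% intervals and cover counting error only. DESeq2 1.42.0, limma 3.58.1 with a cyclic loess scaling and other alternatives were tried. Scripts were tested on simulated data. The 10 genes were named by symbol and reported whatever their values. From each other list, up to 3 called genes with the smallest p are named, and others were named after their values were seen. The genes and lists were chosen with earlier results of these data known. The labels do not say whether the numbers 0 and 1 pair libraries across groups, and the main fits did not pair them. The difference of library 0 and library 1 was correlated between groups. Of 28 such correlations, 9 were over 0.1, with a range of -0.25 to 0.36, which does not settle pairing.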

Additional observations from a re-analysis of the deposited data

Results flagged for a closer look

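In the 6 control epidermis libraries, 5 of the 10 genes had 1 library far from the others, and in all 5 it was week 2 control 1, the library with the lowest total count. Of 20 sets of 6 libraries checked (10 genes in UVB and in control epidermis), 5 had such a library, and chance alone gives about 1 in 20. That library was already known to stand apart, so the chance rate is no measure of these 5. Scd1 had 1096 CPM there and 490 to 571 CPM in the other 5 controls. Elovl3 had 514.6 CPM there and 52.9 to 109 CPM in the others. Dgat2 had 878 CPM there and 397 to 548 CPM in the others. Soat1 had 278.8 CPM there and 16.9 to 66.3 CPM in the others, and Cidea had 226.6 CPM there and 37.8 to 83.7 CPM in the others. The 5 genes were read from the same library, so they are not separate observations.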

How the results depend on the processing

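Counts of the 10 genes called depended on single libraries and on the setting. DESeq2 called 2 for UVB at week 2, 1 for the week 25 minus week 2 difference, 3 for week 15 over week 2 in controls and 1 for tumor over whole skin. A loess scaling called 2 at week 2, 1 at week 25 and 2 for tumor over UVB epidermis. With no filter on low counts 2 were called at week 2, 1 at week 15, 2 at week 25, 3 for the week 25 minus week 2 difference, 4 for week 15 over week 2 in controls and 2 for tumor over UVB epidermis. With only the libraries compared, 4 were called at week 25, 0 for week 25 over week 2 in controls, 4 and 1 for weeks 15 and 25 over week 2 in UVB epidermis and 6 for tumor over UVB epidermis. Leaving out 1 library gave 0 to 5 at week 2, 0 to 1 at week 25, 2 to 5 for the mean over weeks, 0 to 2 and 0 to 3 for the week 15 and week 25 differences from week 2, 0 to 6 for each of weeks 15 and 25 over week 2 in controls, 0 to 4 for tumor over whole skin, 1 to 2 for tumor over UVB epidermis and 4 to 6 for whole skin over epidermis. The replicate block called 1 for tumor over whole skin, Scd3, and changed no other count by over 1.5 times. With crossed numbers in the block the counts were 1 at week 2 and 0 for tumor over whole skin. For single genes, 376 values kept their direction and their side of the threshold, 43 became called, 39 lost the call and 2 reversed: Soat1 for week 15 over week 2 in controls, 0.40 (adjusted p 0.733) without week 2 control 1 and -2.49 without control 0, and Mc5r for tumor over UVB epidermis, -0.003 (adjusted p 0.998) under loess. Over all genes, calls ran from 125 to 4377 at week 2 (2403 as reported), 26 to 1463 at week 15 (471), 519 to 4562 at week 25 (2898) and 2816 to 4641 for the mean over weeks (3973). The cause was not tested. Mogat1, Fads2 and Mc5r had few counts, and depth limits what can be seen of them.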
